A study of Schizosaccharomyces pombe with 12 samples.

Results

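Wild-type *Schizosaccharomyces pombe* cells treated with latrunculin A (LatA) were compared with wild-type cells given its solvent DMSO, over every fission yeast probe set of the array. All arrays labelled as wild type were taken, which gave 6 of the 12 arrays of the series: 3 with LatA and 3 with DMSO. The study set LatA against DMSO in wild type and in *set3Δ*, in which the *set3* gene is replaced by KanMX. The strains of both genotypes carry the *ura4-D18*, *leu1-32* and *ade6-216* alleles, and all cells were grown in liquid YES medium. Both treatments lasted 3 hours, at 30°C by the methods. The labels give the LatA dose as 0.5 mM and the methods give it as 0.5 µM. The labels call the 3 arrays of a group biological replicates. The mating type of the hybridized strains is not stated in the labels.

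LatA binds actin monomers and keeps them out of filaments, and at a low dose it impedes the constriction of the actomyosin ring that divides the fission yeast cell. In this yeast the G1 to S transition depends on the transcription factor complex MBF, which drives genes of DNA synthesis, and the last step of division depends on enzymes that dissolve the septum. Growing cells spend much of their transcription on ribosomes, and starved or stressed cells turn to autophagy, which delivers cytoplasm to the vacuole for breakdown.

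The deposited values are log2 intensities, each centred on the median of its probe set over the 12 arrays. A value of 1 therefore means a signal at a fold of 2 above that median, and values of different genes cannot be ranked as levels. The *set3* probe set stood at 2.20, 2.20 and 2.31 in the LatA arrays and at 2.11, 2.04 and 1.97 in the DMSO arrays, above the 12-array median in all 6, as the wild-type label requires. Of the 8 probe sets of M-cell markers, 0 were higher and 1 was lower with LatA, and their summed values were 7.22 to 7.47 with LatA and 4.66 to 9.75 with DMSO. The 3 probe sets of P-cell markers summed to -0.61 to 0.29 with LatA and -0.82 to 0.36 with DMSO, and none was called. The *ura4* probe set, whose gene is deleted by the *ura4-D18* allele, differed by -0.13 (adjusted p = 0.11). The 3 DMSO arrays were not alike. DMSO replicate 1 was the DMSO array nearest to the LatA arrays for 614 of the 708 probe sets called below (86.7%), against 63 for replicate 2 (8.9%) and 31 for replicate 3 (4.38%). The part of this spread in the results was not tested beyond the fits that leave out 1 array. These are given below beside the genes whose calls they lose and beside many, not all, of the lists whose counts they move. Counts not repeated below moved too, for example from 4 to 2 for gluconeogenesis without DMSO replicate 2. Those of sterol genes moved from 5 to 3 without DMSO replicate 3.

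Differences were tested with limma on the 6 arrays. A probe set was called higher or lower when its Benjamini-Hochberg adjusted p over all 4880 probe sets was below 0.05 and its fold change above 1.5 (0.58 on the log2 scale). All differences are LatA minus DMSO on the log2 scale. With LatA, 352 probe sets were higher (7.21%) and 356 were lower (7.3%), 708 in all (14.5%). A fold change above 2 was reached by 137 of those higher and 64 of those lower. The median difference over all probe sets was -0.03, with 2193 positive and 2687 negative values. The 3 LatA and the 3 DMSO values did not overlap for 2937 probe sets (60.2%), which include 707 of the 708 called. Because a large share of the array passes these limits, each gene list below is read against these figures, by its counts and its median.

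Among 76 lists of genes for metabolism, transport, the cell cycle, organelles and gene expression, 59 held called members and 17 held none. The share called in 1 direction was farthest above that of the array for autophagy, with 19 of 31 higher, for ribosome biogenesis, with 54 of 85 lower, for the cell separation genes, with 5 of 8 lower, and for predicted dehydrogenases and reductases, with 19 of 44 higher and 1 lower. All lists were chosen with earlier results of these data known, and the last of these was added after values had been seen.

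**Figure D1:**
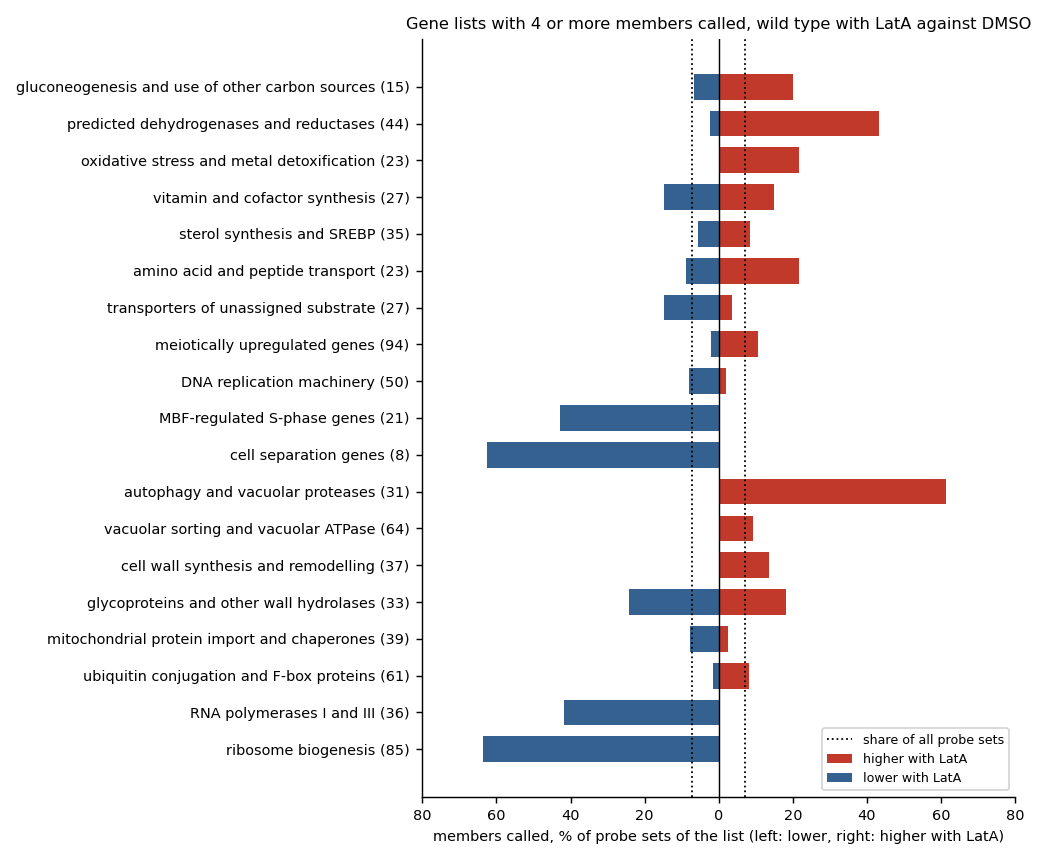
Gene lists with 4 or more called members in wild type with LatA against DMSO. Bars give the share of a list's probe sets called higher (red, to the right) or lower (blue, to the left) with LatA in %, the number of probe sets stands in brackets, and dotted lines mark the shares over all probe sets, 7.21% higher and 7.3% lower; the bar of autophagy reaches farthest to the right, and those of ribosome biogenesis and cell separation farthest to the left.

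The largest increases belonged to genes of varied function. The 12 largest changes each way were taken from called probe sets with 1 gene name whose groups did not overlap. *mug147*, a gene upregulated in meiosis, and *urh1*, which encodes a uridine hydrolase, led those that carry a gene name, both with a difference of 2.95. *urh1* stood at 2.31, 2.17 and 2.08 with LatA, against -0.02, -0.86 and -1.40 with DMSO (standard error 0.33, adjusted p = 0.00481). Its DMSO values spread far more widely than its LatA values. *mug147* stood at 0.10, 0.01 and 0.11 with LatA, against -1.43, -3.62 and -3.57 with DMSO, and *zym1*, which encodes a metallothionein, rose by 2.81. SPAC1399.01c, a predicted purine permease, stood at 1.31, 1.5 and 1.99 with LatA, against -0.67, -0.65 and -0.61 with DMSO (difference 2.24, adjusted p = 0.00332). SPCC1739.08c, a predicted short chain dehydrogenase, stood at 1.11, 1.45 and 2.35 with LatA, against -0.70, -0.49 and -0.65 with DMSO (difference 2.25). *hhy1*, described on the array as a chlorohydrolase or deaminase, stood at 0.93, 1.19 and 2.43 with LatA, against -0.67, -0.53 and -0.63 with DMSO (difference 2.13). In these last 3 genes the DMSO arrays lay close together and the LatA arrays were spread, the reverse of *urh1*.

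*rec10*, which encodes a component of the meiotic chromosome axis, stood at 1.24, 1.45 and 1.34 with LatA, against 0.23, -1.21 and -1.61 with DMSO (difference 2.20, adjusted p = 0.0117). Of the 8 probe sets of markers of meiosis and spores, *rec10* was the 1 called higher and *spo6*, a regulatory subunit of a meiotic kinase, the 1 called lower (-0.69, and -0.54 with the call lost without LatA replicate 3); the 8 summed to -0.42 to 1.92 with LatA and -1.74 to 1.11 with DMSO. SPAC15E1.02c (2.38), SPAC23C11.06c (2.15) and SPAC4H3.03c (2.10), none of them with an assigned role on the array, completed the increases that held in every fit leaving out 1 array. Of the remaining pair, SPBC1271.08c stood at 1.23, 2.51 and 3.12 with LatA, against 0.11, 0.18 and 0.38 with DMSO (2.06), and its call was lost without LatA replicate 2 (adjusted p = 0.0547). SPCC737.04 differed by 2.33, but its DMSO values were -0.66, -1.23 and -3.51, and its call was lost without any one of the LatA arrays or DMSO replicate 2 (adjusted p = 0.065 to 0.106).

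The largest decreases included a pair of transporters, a pair of neighbouring genes and genes of ribosome assembly. SPBC887.17, a predicted uracil permease, stood at -0.79, -0.91 and -1.41 with LatA, against 0.32, 1.08 and 1.75 with DMSO (-2.08, adjusted p = 0.00794). SPCC1529.01, a multidrug efflux transporter by its array description, stood at -0.05, -0.10 and -0.00942 with LatA, against 1.39, 1.88 and 2.23 with DMSO (-1.88). *ser2*, which encodes phosphoserine phosphatase of serine synthesis, stood at -0.32, -0.36 and -1.01 with LatA, against 0.68, 1.03 and 1.04 with DMSO (-1.48). That the groups of these 3 did not overlap follows from how they were chosen. SPBPB10D8.02c, a predicted arylsulfatase, fell by 1.46 and its neighbour SPBPB10D8.01, a membrane transporter, by 1.42. *set7*, which encodes a SET domain protein, fell by 1.56, *mug150* by 1.48, *efm6*, a predicted methyltransferase, by 1.45, and SPBPB8B6.05c, a predicted L-asparaginase, by 1.32. The other 3 of the 12, *dbp3*, *acl4* and *rpf2*, are genes of ribosome biogenesis and are described with it.

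**Figure D2:**
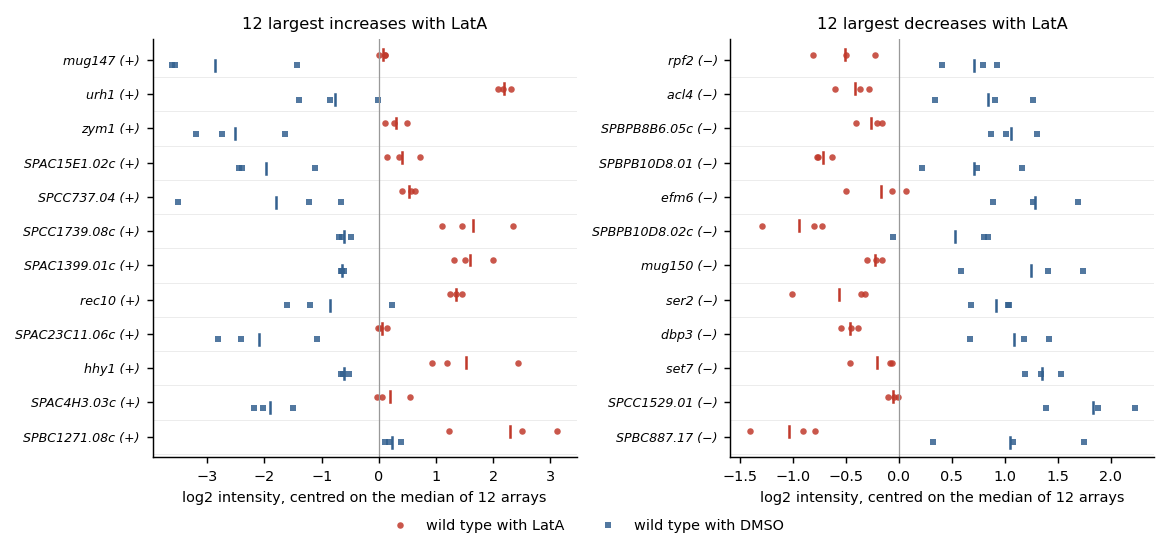
The 12 largest increases and the 12 largest decreases with LatA among called probe sets with 1 gene name and no overlap between the groups. Red dots are the 3 LatA arrays and blue squares the 3 DMSO arrays, vertical ticks are group means, (+) and (−) mark genes called higher and lower, and the horizontal axis is log2 intensity centred on the 12-array median; for *mug147* and *zym1* the spread lies in the DMSO arrays, for *hhy1* and SPBC1271.08c in the LatA arrays.

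Transcripts for building ribosomes were lower with LatA. Of 85 ribosome biogenesis probe sets, 54 were lower and none was higher, against 7.3% lower over the array, and 84 had a negative difference, with a median of -0.67. The list's median on each array was -0.20, -0.18 and -0.26 with LatA, against 0.28, 0.48 and 0.63 with DMSO. *dbp3*, an RNA helicase, stood at -0.39, -0.45 and -0.55 with LatA, against 0.67, 1.18 and 1.42 with DMSO (-1.56, standard error 0.19, adjusted p = 0.00486). *rpf2*, needed to place the 5S ribonucleoprotein in the large subunit, stood at -0.81, -0.23 and -0.50 with LatA, against 0.41, 0.79 and 0.93 with DMSO (-1.22). Both are among the 12 largest decreases, which were chosen from genes whose groups did not overlap. *acl4*, whose budding yeast counterpart is a chaperone of a ribosomal protein, fell by 1.25, and *rrp3*, a predicted RNA helicase, by 1.11. Leaving out 1 array in turn left 45 to 65 of the list called, the highest count being that without DMSO replicate 1.

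The RNA polymerases that transcribe ribosomal and transfer RNA followed the same direction, with 15 of 36 probe sets lower, none higher and a median of -0.43. *rpa34*, an RNA polymerase I subunit, stood at -0.26, -0.32 and -0.55 with LatA, against 0.54, 0.84 and 1.03 with DMSO (-1.18, adjusted p = 0.00486). *ker1*, also of polymerase I, fell by 0.89, and *rpc11* and *rpc34*, of polymerase III, fell by 0.90 and 0.88. Called members numbered 12 to 18 when 1 array was left out. In contrast, 1 of 128 cytosolic ribosomal protein probe sets was lower, *rpl1603* (-0.70), and the median of the list was -0.06. The sign of these small values rests on scaling: 113 of the 128 were negative in the deposited values, and 91 after each array was centred on its median. Among 35 translation factors, *hri1*, a kinase that phosphorylates the initiation factor eIF2, rose by 1.86 and *sce3*, an initiation factor, fell by 0.67. *hri1* stood at 0.69, 0.64 and 0.49 with LatA, against -0.54, -1.2 and -2.02 with DMSO. None of 27 aminoacyl-tRNA synthetases was called, the 2 with the largest differences being *qrs1* (-0.40) and *rar1* (-0.38). All 11 members of the CCT chaperonin and prefoldin, which fold actin and tubulin, had a negative difference and none was called, with *cct2* at -0.30 and *cct6* at -0.27. After centring of the arrays 10 of those 11 were negative.

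Genes that MBF drives in S phase were lower with LatA. Of 21 probe sets 9 were lower and none was higher, with a median of -0.52. *cig2*, the S-phase cyclin, stood at -0.94, -0.83 and -1.03 with LatA, against 0.16, 0.37 and 0.35 with DMSO (-1.22, standard error 0.08, adjusted p = 0.00332). *cdc22*, the large subunit of ribonucleotide reductase, stood at -0.70, -0.69 and -0.94 with LatA, against 0.35, 0.28 and 0.31 with DMSO (-1.09). *dut1*, the dUTPase that keeps uracil out of DNA, stood at -0.61, -0.50 and -0.68 with LatA, against 0.61, 0.45 and 0.74 with DMSO (-1.2). These 3 genes varied little between replicates. Their groups lay apart, as did those of nearly all called probe sets. *cdt1*, which licenses replication origins, fell by 1.03 with wider DMSO values of 0.53, -0.05 and 0.35. The other 5 called members were *tos4* (-1.01), *mik1* (-0.98), an inhibitory kinase of Cdc2p, *cdc18* (-0.95), a partner of Cdt1p in licensing, *cdt2* (-0.86) and *yox1* (-0.68), a repressor of MBF. The count was 9 or 10 whichever array was left out. *suc22*, the small subunit of ribonucleotide reductase, differed by 0.02 (adjusted p = 0.705) and *ssb1*, of the single-strand binding complex, by 0.004.

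The MBF subunits and cyclins of start showed no common direction. *res2*, a DNA-binding subunit of MBF, differed by 1.11, with values of 0.53, 0.21 and -0.11 with LatA, against -0.13, -1.27 and -1.30 with DMSO. That call was lost without any array other than DMSO replicate 1 (adjusted p = 0.0707 to 0.128). The cyclin gene *pas1* rose by 0.72, and *rep2*, an activator subunit of MBF, fell by 0.62, although its call was lost without DMSO replicate 2 or 3 (-0.53 to -0.58, under the fold limit). Of 50 probe sets of the replication machinery 4 were lower (8%, near the 7.3% of the array) and 1 was higher (2%, against 7.21%). Those lower were *mcm7* (-0.82) of the replicative helicase, *ssb3* (-0.76) of the single-strand binding complex, *cdc45* (-0.70) and *psf3* (-0.67) of the GINS complex. The higher member was *cdc1*, the small subunit of DNA polymerase delta (0.77). In this list 44 of 50 values were negative, with a median of -0.24, and 42 after centring of the arrays. The call of *ssb3* was lost without LatA replicate 2 or 3 or DMSO replicate 2 (adjusted p = 0.0547 to 0.0634). None of the 14 histone probe sets was called, the 2 farthest from 0 being *cnp1*, the centromeric histone H3 (-0.49), and *hhf3* (-0.41).

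Genes of cell separation were also lower. Of 8 probe sets 5 were lower, all 8 differences were negative, also after centring of the arrays, and the median was -0.81. *adg2*, a predicted glycoprotein, stood at -0.68, -0.81 and -0.67 with LatA, against 0.24, 0.21 and 0.19 with DMSO (-0.94, standard error 0.06, adjusted p = 0.00332). *eng1*, the endo-beta-1,3-glucanase that digests the primary septum, stood at -0.44, -0.53 and -0.65 with LatA, against 0.32, 0.36 and 0.23 with DMSO (-0.85). *agn1*, the alpha-glucanase that digests the surrounding wall, stood at -0.38, -0.41 and -0.48 with LatA, against 0.46, 0.38 and 0.30 with DMSO (-0.80). The values of each group were tightly placed. They did not overlap, which holds for nearly all called probe sets. *adg1* fell by 0.91 and *adg3*, a predicted beta-glucosidase, by 0.82. *mid2*, which encodes an anillin-like protein of the septum, differed by -0.11 (adjusted p = 0.189), with overlapping groups. All 5 calls held without any one array.

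**Figure D3:**
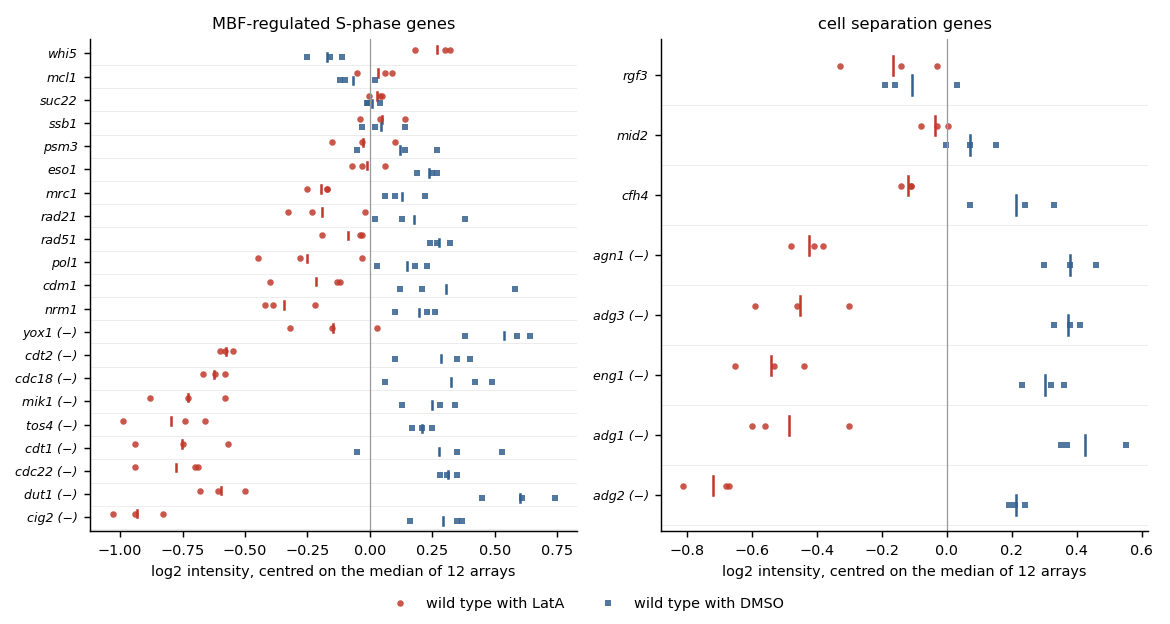
MBF-regulated S-phase genes (left) and cell separation genes (right). Red dots are the 3 LatA arrays and blue squares the 3 DMSO arrays, vertical ticks are group means, (−) marks genes called lower, and the axis is log2 intensity centred on the 12-array median; the called cell separation genes show both groups narrow and apart, while the groups of *mid2* overlap.

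In mitotic control *mik1* was the 1 lower member and *pyp3*, a phosphatase that activates Cdc2p, was the 1 higher (0.68). Of 22 forkhead and Mbx1 genes *pas1* alone was called. None of 14 genes of the anaphase promoting complex was called, with *slp1* at -0.66 (adjusted p = 0.0554) and *apc2* at 0.53 (adjusted p = 0.0573), and none of 15 cohesin and condensin genes, with *rec11* at -0.47 and *psc3* at -0.42. Among 53 kinetochore and spindle genes *dam1* was higher (0.61) and *sim4* lower (-0.60). Among 48 genes of DNA repair and checkpoints *mag1*, a DNA glycosylase, was higher (0.96) together with the checkpoint kinase gene *rad3* (0.61). The last 2 make 4.17% of their list, against 7.21% of the array. *dma1*, an inhibitor of the septation initiation network, rose by 0.75, the 1 call among 16 genes of that network. The call of *dam1* was lost without LatA replicate 2 or 3 or DMSO replicate 2 or 3 (0.49 to 0.61), that of *sim4* without LatA replicate 1 or 3 or DMSO replicate 2 or 3 (-0.64 to -0.45), that of *dma1* without LatA replicate 1 or 3 or DMSO replicate 3 (0.56 to 0.73), and that of *rad3* without any array other than DMSO replicate 1 (0.45 to 0.65). Without DMSO replicate 1 the lists of DNA repair and checkpoints held 7 calls, of the kinetochore and spindle 4, of mitotic control 4, of the forkhead and Mbx1 genes 3 (3 also without DMSO replicate 2), of the septation initiation network 2, of the anaphase promoting complex 1 (1 also without DMSO replicate 2) and of cohesin and condensin 1. Of 40 genes of actin and the contractile ring 1 was called, the formin gene *fus1* (0.60), which is also in the list of meiosis and mating regulators. The 40 had 34 positive differences and a median of 0.16. The call of *fus1* was lost without LatA replicate 1 or 3 or DMSO replicate 2 (0.46 to 0.63), and 4 members were called without DMSO replicate 1.

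Most of the autophagy genes measured were higher with LatA. Of 31 probe sets for autophagy and vacuolar proteases 19 were higher, against 7.21% of the array, and none was lower, with 28 positive values and a median of 0.69. The list's median on each array was 0.19, 0.11 and 0.16 with LatA, against -0.26, -0.58 and -0.63 with DMSO. At the start of the pathway, *atg13*, a regulator of the Atg1p kinase, stood at 0.19, 0.11 and 0.27 with LatA, against -0.70, -1.0 and -1.24 with DMSO (1.17, standard error 0.14, adjusted p = 0.00482). *atg2402*, a sorting nexin, stood at 0.53, 0.40 and 0.62 with LatA, against -0.43, -1.07 and -1.22 with DMSO (1.42). *isp6*, a vacuolar serine protease, stood at 0.20, 0.19 and 0.34 with LatA, against -0.58, -1.15 and -1.23 with DMSO (1.23). The groups did not overlap for these 3, as for nearly all called probe sets, and DMSO replicate 1 was the DMSO array nearest to LatA in each. *atg43*, a receptor for the autophagy of mitochondria, differed by 1.30 with DMSO values of -0.25, -0.88 and -1.86, and its call was lost without any one of the LatA arrays or DMSO replicate 2 (adjusted p = 0.0815 to 0.106). *atg8*, the ubiquitin-like protein of the autophagosome membrane, was picked out after its values were seen: it stood at 0.27, 0.24 and 0.30 with LatA, against -0.45, -0.74 and -0.85 with DMSO (0.95). The 3 members with a negative difference were *atg11* (-0.12), *atg5* (-0.09) and *atg12* (-0.02). With 1 array left out 13 to 22 members were called, the highest count again without DMSO replicate 1.

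**Figure D4:**
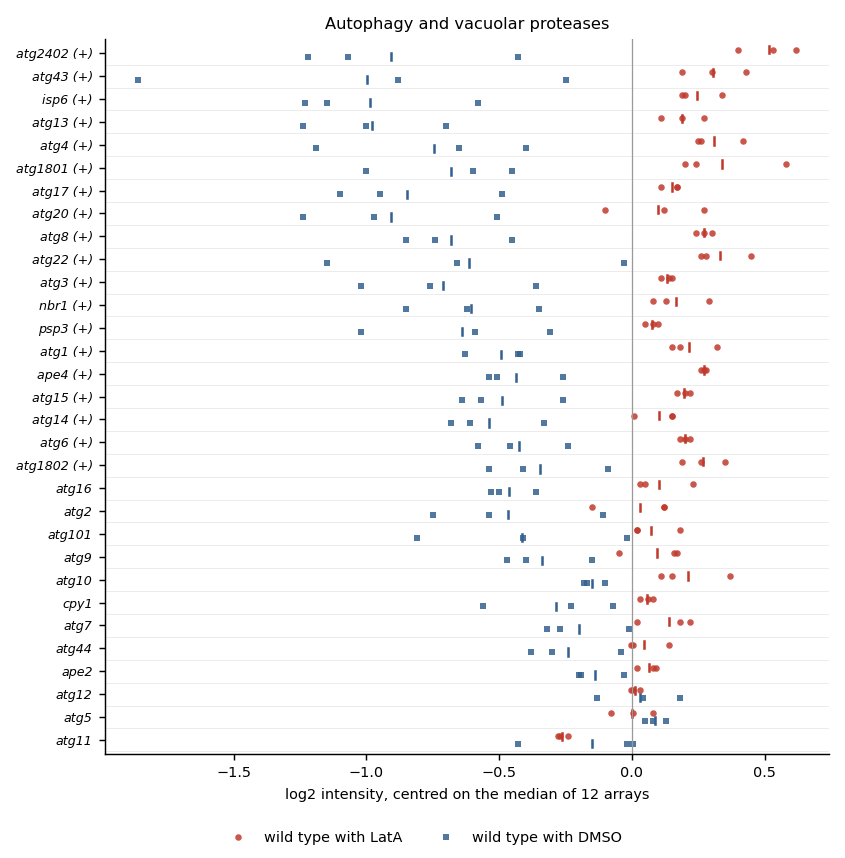
The 31 probe sets of autophagy genes and vacuolar proteases, ordered by their difference. Red dots are the 3 LatA arrays and blue squares the 3 DMSO arrays, vertical ticks are group means, (+) marks the 19 genes called higher, and the axis is log2 intensity centred on the 12-array median; the LatA arrays of the called genes lie close together while 1 DMSO array often lies nearer to them than the other DMSO arrays.

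Of 64 probe sets for vacuolar sorting and the vacuolar ATPase 6 were higher (9.38%, against 7.21% of the array) and none lower, with a median of 0.08. They included *isp6*, *vps60* (0.72), *vps15* (0.71), a kinase of the phosphatidylinositol 3-kinase complex that autophagy shares, and the dynamin-like *vps1* (0.79). The call of *vps1* was lost without any array other than DMSO replicate 1 (adjusted p = 0.0602 to 0.103), and the list held 10 calls without DMSO replicate 1 and 3 without any other array. Of 61 genes of ubiquitin conjugation 5 were higher (8.2%, against 7.21% of the array) and 1 was lower (1.64%, against 7.3%). Those higher included *ubc8* (0.94), a conjugating enzyme, and the F-box genes *pof13* (0.83) and *pof14* (0.75). The lower member was the ubiquitin protease gene *ubp16* (-0.93). Without DMSO replicate 1 the list held 13 calls. None of 34 proteasome probe sets was called, although 33 differences were positive, also after centring, with a median of 0.25, and the 2 farthest from 0 were *pam1* and *rpn1302*, both at 0.52; 2 were called without DMSO replicate 1 and 1 without LatA replicate 3.

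In carbon metabolism, called genes of the tricarboxylic acid cycle, gluconeogenesis and trehalose were higher with LatA, with 1 exception. All 3 called genes of the cycle were higher. *idh2*, a subunit of isocitrate dehydrogenase, stood at 0.16, 0.12 and 0.11 with LatA, against -0.41, -0.89 and -0.89 with DMSO (0.86, standard error 0.14, adjusted p = 0.00613), the other subunit *idh1* rose by 0.68, and *mdh1*, malate dehydrogenase, by 0.67, of 16 in the list. *fbp1*, the fructose-1,6-bisphosphatase of gluconeogenesis that glucose represses, stood at 0.21, 0.25 and 0.43 with LatA, against -0.31, -1.29 and -1.82 with DMSO (1.44). The alcohol dehydrogenase gene *adh8* rose by 0.88 and the alpha-glucosidase gene *agl1* by 0.75, and the galactokinase gene *gal1* fell by 0.87, which made 3 higher and 1 lower of 15. Of 7 trehalose and glycerol genes 2 were higher, *ntp1*, which degrades trehalose (0.99), and *tps3*, a subunit related to its synthesis (0.60). The calls of *fbp1*, *agl1* and *ntp1* were lost without any one of the LatA arrays or DMSO replicate 2 (adjusted p = 0.054 to 0.0757), and that of *tps3* without any array other than DMSO replicate 1 (0.113 to 0.139). Among 16 genes of glycolysis and ethanol formation 1 was called, the enolase gene *eno102* (0.94, adjusted p = 0.0626 without DMSO replicate 2), and 2 were called without DMSO replicate 1 or LatA replicate 3. None of 7 genes of the pentose phosphate pathway and NADPH was called, the largest differences being *zwf1* (0.38) and *mae2* (0.22).

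Predicted dehydrogenases and reductases, most of them without an assigned substrate, were higher in 19 cases. This list was added after values had been seen. Of 44 probe sets 19 were higher and 1 was lower, with a median of 0.33. SPAC4H3.08, a predicted short chain dehydrogenase, stood at -0.17, -0.23 and 0.17 with LatA, against -1.79, -1.99 and -2.17 with DMSO (1.91, standard error 0.14, adjusted p = 0.00332). SPAC2E1P3.01, a zinc binding dehydrogenase, stood at 0.40, 0.46 and 0.55 with LatA, against -1.03, -1.39 and -2.03 with DMSO (1.95). SPBC23G7.10c, a predicted NADH-dependent flavin oxidoreductase, stood at 2.54, 2.69 and 2.82 with LatA, against 1.33, 1.04 and 0.74 with DMSO (1.65). No value of one group reached the other in these genes, as in 707 of all 708 probe sets called. With 1 array left out 18 to 22 members were called. The 1 lower member was SPAC8E11.10 (-0.89). Also chosen after their values were seen, the gamma-aminobutyrate transaminase gene *uga1* rose by 1.07, and the succinate-semialdehyde dehydrogenase genes *ssd1* and *ssd2* rose by 1.22 and 1.11. Of 23 genes of oxidative stress and metal detoxification 5 were higher and none lower: *zym1*, the glutathione S-transferase genes *gst2* (1.84) and *gst3* (1.2), catalase *ctt1* (1.02) and the sulphiredoxin gene *srx1* (0.72). The calls of *gst3* and *srx1* were lost without LatA replicate 2 or 3 or DMSO replicate 2, with adjusted p of 0.0532 to 0.0564 for *gst3* and 0.0487 to 0.0741 for *srx1*, whose difference was then as low as 0.55.

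In purine synthesis 3 of 16 probe sets were lower, none was higher, and 15 differences were negative, 14 after centring of the arrays, with a median of -0.33. *ade9*, the predicted C-1-tetrahydrofolate synthase that supplies one-carbon units, stood at -0.24, -0.34 and -0.38 with LatA, against 0.52, 0.76 and 0.91 with DMSO (-1.05, standard error 0.11, adjusted p = 0.0048). *ade5*, of the early purine pathway, stood at -0.12, -0.04 and -0.22 with LatA, against 0.48, 0.73 and 0.84 with DMSO (-0.81), and *apt1*, which recycles adenine, fell by 0.66. The groups of *ade9* and *ade5* lay apart, as did those of nearly all called probe sets. *ade6*, mutated in these strains, differed by -0.23 (adjusted p = 0.0585). In pyrimidine synthesis *ura3*, dihydroorotate dehydrogenase, fell by 0.65, whereas 2 salvage genes were higher. *cdd1*, a cytidine deaminase, stood at 1.25, 1.44 and 0.92 with LatA, against 0.27, -0.39 and -0.69 with DMSO (1.47, adjusted p = 0.00814), and *urg3*, a gene induced by uracil, differed by 0.72 (adjusted p = 0.0491). *uck2*, which phosphorylates uridine, did not pass the test (1.19, adjusted p = 0.0775). Beside them stand *urh1* and the purine permease gene SPAC1399.01c among the increases and the uracil permease gene SPBC887.17 among the decreases, while the uracil permease gene *fur4* differed by -0.17 (adjusted p = 0.252). The call of *urg3* was lost without any array other than DMSO replicate 1 (adjusted p = 0.0657 to 0.136), and those of *apt1* and *ura3* without DMSO replicate 3 (both -0.57, under the fold limit). The 13 probe sets of pyrimidine synthesis and salvage held 6 calls without DMSO replicate 1 and 1 without DMSO replicate 3.

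**Figure D5:**
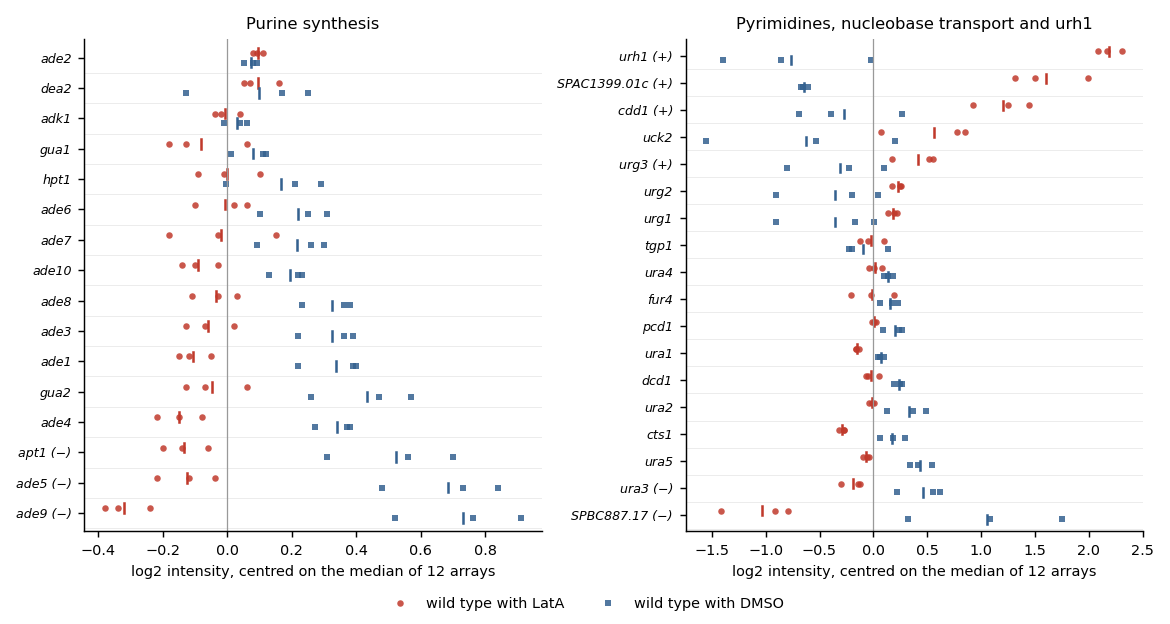
Genes of purine synthesis (left) and of pyrimidine synthesis, salvage and nucleobase transport with *urh1* (right). Red dots are the 3 LatA arrays and blue squares the 3 DMSO arrays, vertical ticks are group means, (+) and (−) mark genes called higher and lower, and the axis is log2 intensity centred on the 12-array median; *urh1*, SPAC1399.01c and *cdd1* lie high with LatA and the called purine genes lie high with DMSO.

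Biosynthesis of amino acids, lipids and cofactors held scattered calls. Of 51 amino acid synthesis genes 2 were lower, *ser2* and *lys7* (-0.62), and none was higher. Sterol genes went both ways: *are2*, which esterifies sterols (0.80), and the genes *dsc5* (0.78) and *dsc1* (0.61) of the Dsc ligase, which activates the sterol regulator Sre1p, were higher, and the C-5 desaturase gene *erg31* (-0.82) and *hmg1*, HMG-CoA reductase (-0.59), were lower, of 35. *ned1*, a lipin, rose by 0.88, the 1 call among 25 genes of fatty acids and membrane lipids, which held 2 without DMSO replicate 1 or LatA replicate 1. Of 27 vitamin and cofactor genes 4 were higher and 4 lower, 8 in all, against 4 without DMSO replicate 3. *pho4*, the thiamine-repressed acid phosphatase, stood at -0.22, -0.38 and -0.28 with LatA, against 0.59, 1.0 and 1.10 with DMSO (-1.19, adjusted p = 0.00482), and *thi1*, the activator of thiamine genes, fell by 0.80. *isa2* (0.80) and *isa1* (0.75), which assemble iron-sulphur clusters, rose. The call of *are2* was lost without LatA replicate 3 (adjusted p = 0.0505), that of *dsc1* without LatA replicate 1 or DMSO replicate 3 (differences of 0.57 and 0.54), and that of *hmg1* without LatA replicate 2 or DMSO replicate 2 or 3 (-0.54 to -0.56).

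Transporters changed in both directions. Of 23 amino acid and peptide transporters 5 were higher and 2 lower, 7 in all, against 3 without LatA replicate 1 or 2 or DMSO replicate 2 and 4 without LatA replicate 3. *per1* stood at 0.50, 0.41 and 0.34 with LatA, against -0.73, -0.20 and -0.59 with DMSO (0.93, standard error 0.14, adjusted p = 0.00574). *isp5* stood at 1.47, 1.15 and 0.19 with LatA, against 0.02, -0.91 and -1.82 with DMSO (1.84, adjusted p = 0.0334), so both groups were spread. SPBC1652.02 stood at -0.50, -0.91 and -0.86 with LatA, against 0.02, 0.33 and 0.15 with DMSO (-0.92). SPCPB1C11.02, a predicted permease, differed by 1.78. The call of *isp5* was lost without LatA replicate 1 or 2 or DMSO replicate 2 or 3, and that of SPCPB1C11.02 without any one of the LatA arrays or DMSO replicate 2 (adjusted p = 0.0659 to 0.101 and 0.0818 to 0.0994). Of 27 transporters of unassigned substrate SPAC3H1.06c was higher (1.27) and 4 were lower, SPCC1529.01, SPBPB10D8.01, SPCC330.07c (-0.86) and *flx1* (-0.60), a mitochondrial carrier whose call was lost without LatA replicate 3 or DMSO replicate 3 (-0.57 and -0.58). Without DMSO replicate 1 the list held 8 calls.

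Of 8 hexose transporters none was called, against 3 without DMSO replicate 1 and 2 without LatA replicate 3. They included *ght1* with -0.00800, -0.00964 and 0.42 with LatA, against 0.29, 1.60 and 1.49 with DMSO (-0.99, adjusted p = 0.0664), where the groups overlapped in DMSO replicate 1, and *ght3* at -0.51. In iron and copper uptake *sib1*, which makes the siderophore ferrichrome, was higher (0.74), as was *mmt1*, a metal transporter (0.61), and *fio1*, the oxidase of iron uptake, was lower (-0.97), of 23, with 5 calls without DMSO replicate 1. The zinc transporter gene *zrt1* was lower (-0.60), the 1 call of 17 for zinc, manganese and calcium. Of 16 multidrug and ABC transporters *mfs2* (0.90) and *pmd1* (0.72) were higher and *bsu1* (-0.60) lower. All 7 of these calls were lost in 2 or more of the 6 fits without 1 array: *fio1* and *mfs2* without any one of the LatA arrays or DMSO replicate 2 (adjusted p = 0.0707 to 0.101), *sib1* and *pmd1* without any array other than DMSO replicate 1 (up to 0.098 and 0.115), *zrt1* without any array other than DMSO replicate 3 (up to 0.124), *mmt1* without LatA replicate 1 or 3 or DMSO replicate 2 or 3 (up to 0.0607), and *bsu1* without DMSO replicate 2 or 3 (-0.57 and -0.51). No gene was called among 9 transporters of nitrogen, sulphate and organic acids, with *mae1* at -0.62 (adjusted p = 0.209) and *sul2* at -0.50 and 1 call without DMSO replicate 1 or LatA replicate 1, or among 7 for protons, sodium and potassium, with *trk2* at -0.34 and *pma2* at 0.18.

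In mitochondria none of 59 probe sets for the ribosome and translation was called (*mrpl10* 0.41, *mrp51* 0.37), and of 46 for the respiratory chain and ATP synthase 1 was, *inh1*, an inhibitor of the ATPase, at 0.17, 0.20 and 0.21 with LatA, against -0.33, -1.05 and -0.99 with DMSO (0.98); this list held 4 calls without DMSO replicate 1 and 2 without LatA replicate 3. Of 39 genes of mitochondrial protein import and chaperones *sam50*, of the outer membrane, rose by 0.68 (2.56% of the list higher), and *tim22*, *tim16* and *tim44*, of the inner membrane translocases, fell by 0.72, 0.67 and 0.63 (7.69% lower, against 7.3% of the array). The calls of *tim16* and *tim44* were lost without LatA replicate 1 and without DMSO replicate 3 or 2 (-0.50 to -0.58). In the secretory pathway *alg1*, a mannosyltransferase of N-glycans, was lower (-0.61, -0.57 without LatA replicate 3), *gos1*, a Golgi SNARE, was higher (0.80), and *gwt1*, of GPI anchor synthesis, was higher (0.82, lost without any array other than DMSO replicate 1 with adjusted p up to 0.113), each the 1 call of its list of 47, 57 and 15. Without DMSO replicate 1 these lists held 4, 3 and 2 calls; without LatA replicate 1 the first 2 held 2 each, and without LatA replicate 3 the first held none. The exocyst had none of 13 (*sec8* 0.36, *sec15* -0.30). At the nuclear envelope *mog1* (-0.64), *los1* (-0.63) and *kap123* (-0.60), all of nuclear transport, were lower among 51 probe sets of pores and transport. They make 5.88% of the list, below the 7.3% of the array. Of the 51 differences 46 were negative, 44 after centring. The call of *los1* was lost without DMSO replicate 3, that of *kap123* without LatA replicate 3 or DMSO replicate 3 and that of *mog1* without LatA replicate 2 or DMSO replicate 2 or 3 (-0.53 to -0.60), so that the list held 0 calls by limma without DMSO replicate 3, against 6 without DMSO replicate 1 and 35 at an unadjusted p below 0.05 in the fit of all 6 arrays.

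Of 37 genes for wall synthesis and remodelling 5 were higher and none lower. *mok13*, an alpha-glucan synthase, stood at 0.44, 0.29 and 0.63 with LatA, against -0.23, -0.55 and -0.61 with DMSO (0.92, standard error 0.13, adjusted p = 0.00538). *cfh2* (1.35), *bgl2* (0.85) and *exg3* (0.84), the last 2 of them predicted beta-glucan enzymes, were also higher; *cfh2* was lost without LatA replicate 2 or 3 or DMSO replicate 2 (adjusted p = 0.0578 to 0.0619). Among 33 glycoproteins and other wall hydrolases 6 were higher, *mug191* (1.55) with the largest change, and 8 were lower, which include *adg1*, *adg2*, *adg3* and *eng1*. None of 23 polarity genes was called (*gef1* 0.47, *orb6* 0.41), nor any of 13 of the cell integrity MAP kinase pathway (*mkh1* 0.51, *pck1* 0.38), which held 1 call without DMSO replicate 1. Within glucose and cAMP signalling, *pka1*, the catalytic subunit of protein kinase A, stood at 0.26, 0.20 and 0.20 with LatA, against -0.38, -0.78 and -0.95 with DMSO (0.92), whereas *gpa2*, the G protein alpha subunit upstream of it, stood at -0.36, -0.48 and -0.37 with LatA, against 0.15, 0.73 and 0.72 with DMSO (-0.94). The G protein beta subunit gene *git5* differed by 0.93, a call lost without LatA replicate 2 or 3 or DMSO replicate 2 (adjusted p = 0.0572 to 0.0633); these 3 were the calls of 20 genes, against 5 without DMSO replicate 1. Both called genes of the Sty1p stress pathway, *pcr1* (0.74) and *cip1* (0.72), were higher, of 21. *isp7*, an oxygenase of nitrogen signalling, differed by 1.14 (adjusted p = 0.0252, lost in 4 of 6 fits, with adjusted p of 0.0694 to 0.0757 without any one of the LatA arrays or DMSO replicate 2). It was the 1 called of 22 TOR and nitrogen signalling genes, against 3 without DMSO replicate 1 and 0 without LatA replicate 1.

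Of 94 genes upregulated in meiosis 10 were higher (10.6%, against 7.21% of the array) and 2 lower (2.13%, against 7.3%). Their median was 0.03, and 23 were called without DMSO replicate 1. *mug108* stood at 0.10, 0.17 and 0.20 with LatA, against -1.02, -1.94 and -2.44 with DMSO (1.95, adjusted p = 0.0074), and *mug143* rose by 1.71. Among 10 probe sets of M-cell mating genes the median was 0.19, 6 were positive and 2 were lower: *mam4*, for the methyltransferase that matures M-factor (-0.69), and 1 of the 2 probe sets of the M-factor gene *mfm1* (-0.63), the other standing at -0.48, under the fold limit. The call of *mfm1* was lost without LatA replicate 2 or 3 or DMSO replicate 1 (-0.46 without the last), and the M-factor genes *mfm2* (0.36) and *mfm3* (0.29 and 0.33) were not called. *map1* and *map2* of P cells differed by 0.39 and -0.36, with no call. Of 12 probe sets of *wtf* elements and Tf2 retrotransposons 3 were higher, a pair named *wtf9* (0.74 and 0.60) and *wtf14* (0.60); the calls at 0.60 were lost without LatA replicate 3 or DMSO replicate 3 (0.51 to 0.57), and the list held 5 calls without DMSO replicate 1 and 1 without LatA replicate 3. The *wtf9* probe set at 0.60 is of a kind that can match several genes, so its signal cannot be assigned to a single copy. In chromatin, *set7* and *set5* (-0.94) were the 2 lower of 12 SET domain genes, and none of 18 genes of the Set3 complex and histone deacetylases was called: *set3* differed by 0.20, *snt1* by 0.09, *hif2* by -0.00786 and *hos2* by -0.09, with the largest differences in *dep1* (-0.28, from 1 LatA array at -1.03) and *clr1* (0.25). Of 84 splicing factors *cwf15* was higher (0.66, adjusted p = 0.0584 to 0.0734 without LatA replicate 1 or 2 or DMSO replicate 2 or 3) and *prp43*, a helicase that also acts in ribosome assembly, lower (-0.88), and 6 were called without DMSO replicate 1. *hsp104*, the protein disaggregase, was the 1 call of 22 heat shock genes (0.82, adjusted p = 0.0496) and the 1 called probe set of all 708 whose groups overlapped, at 0.14, 0.02 and -0.24 with LatA, against -0.23, -1.11 and -1.21 with DMSO; its call was lost without any array other than DMSO replicate 1 (adjusted p = 0.0843 to 0.143), and without DMSO replicate 1 the list held 6 calls.

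In *set3Δ* cells, tested in the same way on their own 6 arrays, 176 probe sets were called (3.61%), 96 higher (1.97%) and 80 lower (1.64%) with LatA. These calls depend on single arrays: limma called 0 without *set3Δ* LatA replicate 1 or 2, 18 without *set3Δ* DMSO replicate 1, 107 without LatA replicate 3 and 120 and 218 without DMSO replicates 2 and 3, and 5 with each probe set's own variance. A pool of 108 was called in both strains in the same direction, which is 15.3% of the wild-type calls and 61.4% of the *set3Δ* calls, and 2 were called in opposite directions. The probe sets called higher in wild type had a median difference of 0.50 in *set3Δ* and 0.90 in wild type, and those called lower -0.35 in *set3Δ* and -0.77 in wild type; the probe sets were chosen by these wild-type values. By list, the median of ribosome biogenesis was -0.26 in *set3Δ* and -0.67 in wild type, that of autophagy 0.44 in *set3Δ* and 0.69 in wild type, that of the MBF genes -0.61 in *set3Δ* and -0.52 in wild type, and that of the cell separation genes -1.1 in *set3Δ* and -0.81 in wild type. The difference between the strains' responses was called for 3 probe sets (0.0615%), among them SPAC922.03, with a response of -0.05 in *set3Δ* and 1.10 in wild type, and 986 had an unadjusted p below 0.05. The number called, 3 in the main fit, was 260 without wild-type DMSO replicate 1. It was 0 without wild-type DMSO replicate 2 or LatA replicate 2 or 3. *isp5* differed by -1.31 in *set3Δ* and 1.84 in wild type, and *fbp1* by -0.10 in *set3Δ* and 1.44 in wild type, but the test of neither difference passed (adjusted p = 0.134 and 0.15). For SPBC23G7.10c, with 0.42 in *set3Δ* and 1.65 in wild type, the adjusted p was 0.0523.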

How the data were processed

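The 12 samples were hybridized to Affymetrix Yeast Genome 2.0 arrays. The authors normalized the arrays with RMA in GeneSpring GX, and the deposited values are log2 intensities, each probe set centred on its median over the 12 arrays (read from the values, whose row medians are 0 to within 7.02e-07). Centred values hold no level, so dim probe sets could not be filtered. Groups were taken from the sample labels. Of 4880 *S. pombe* probe sets, 3917 carry 1 gene name, from the platform annotation or the array descriptions; 19 match several genes and 944 have no name here, and they were tested but not named.

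The fits were made with limma 3.58.1 (lmFit and eBayes, R 4.3.3, statmod 1.5.0) and figures with Python 3.11.15 and matplotlib 3.10.9. The number of arrays limits the precision, and an exact permutation test of 3 against 3 arrays cannot go below p = 0.1. Data for 4880 probe sets were simulated with independent normal noise, 1 spread per probe set for both groups, and known differences in 200. The fit called 88% of those of size 0.8 and 94% of those of size 1.2, with 4 false calls among the unchanged probe sets. The simulation holds no shift that many probe sets of 1 array share, such as that of DMSO replicate 1. It therefore does not give the rate of false calls in the real arrays. The 12 largest called changes each way were named, among probe sets with 1 gene name and no overlap between the groups. Also named were up to 4 called members of each list (all where a list has 5 or fewer). For a list with none the 2 farthest from 0 were named, as were the Set3 complex and marker genes. *tos4*, *cdc18*, *cdt2*, *yox1*, *suc22*, *ssb1*, *mid2*, *atg5*, *atg8*, *atg11*, *atg12*, *uck2*, *fur4*, *uga1*, *ssd1*, *ssd2*, SPAC8E11.10 and the genes of the neighbouring pairs were chosen after their values were seen. The members and lists were chosen with earlier results of these data known. A few genes whose array description named another function than their list were taken out, and 3 lists were added, after values had been seen. The added lists were transporters of unassigned substrate, predicted dehydrogenases and reductases, and glycoproteins and other wall hydrolases. Results that need certain genes are not reported here. The comparison of promoter motifs was not run, because no promoter sequence was used here.

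Alternatives were the replicate block, a variance per probe set, weights per array, centring of each array, no probe sets of several genes, all 12 arrays in 1 fit, a fold above 2, an adjusted p below 0.01 and leaving out each array.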

Additional observations from a re-analysis of the deposited data

Results flagged for a closer look

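For 3 probe sets the LatA response of *set3Δ* differed from that of wild type in the limma fit over all 12 arrays, with 986 at an unadjusted p below 0.05. The number called was 0 with each probe set's own variance and at an adjusted p below 0.01. It was 0 or 1 in 9 of the 12 fits that left out 1 array. It was 5 without wild-type DMSO replicate 3, 25 without *set3Δ* LatA replicate 3, 260 without wild-type DMSO replicate 1 and 324 with array weights. SPAC922.03 responded with -0.05 in *set3Δ* (adjusted p = 0.784) and 1.10 in wild type (adjusted p = 0.00332), where it stood at 1.07, 0.92 and 1.01 with LatA, against 0.03, -0.10 and -0.24 with DMSO; the responses differed by -1.15 (standard error 0.15, adjusted p = 0.0308). SPAPB1A11.02 responded with 2.05 in *set3Δ* and 0.18 in wild type, a difference of 1.87 (standard error 0.25, adjusted p = 0.0389). A probe set with no gene name here responded with -1.45 in *set3Δ* and 0.42 in wild type, a difference of -1.87 (standard error 0.22, adjusted p = 0.0308). In wild type the groups overlapped for SPAPB1A11.02 and did not for the other 2.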

How the results depend on the processing

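None of the 154 probe sets that met the naming rule and passed changed direction in any setting tried. That is no test of stability. Leaving out 1 array cannot reverse a difference between groups that do not overlap, as in 707 of the 708 wild-type calls. Other limits on fold or p do not alter the direction either. Of the 154, 101 passed in each fit leaving out 1 array. Small differences did change sign: over all probe sets 2687 were negative in the deposited values and 2491 after centring of the arrays. Leaving out 1 array gave 0 to 218 calls in *set3Δ*, 558 to 990 in wild type and 0 to 260 for the difference between the strains; the 990 and the 260 came without wild-type DMSO replicate 1, and 699 of the 708 wild-type calls were among the 990. Over the same fits the lists held 45 to 65 (ribosome biogenesis), 12 to 18 (RNA polymerases I and III), 13 to 22 (autophagy), 9 to 10 (MBF), 5 in each fit (cell separation) and 18 to 22 calls (dehydrogenases). A fold above 2 left 54 calls in *set3Δ* and 201 in wild type, with 11 in ribosome biogenesis, 1 in RNA polymerases I and III, 7 in autophagy, 5 in MBF and 0 in cell separation, the last by limma with 6 of the 8 at an unadjusted p below 0.05. Each probe set's own variance left 5 calls in *set3Δ* and 0 for the strain difference (986 at an unadjusted p below 0.05 in the limma fit), array weights gave 324 and centred arrays 8 for that difference, and an adjusted p below 0.01 left 0 for *set3Δ* and 0 for it; the cause was not tested. Same-numbered arrays were not treated as pairs in the main fits. In wild type their deviations from the group means correlated at 0.0174, -0.142 and -0.0166. So few arrays cannot settle whether they were paired, and in *set3Δ* this was not checked. With the replicate number as a block, limma called 0 in *set3Δ* and 704 in wild type. Centring moved the wild-type split to 391 higher and 320 lower. Depth cannot be judged, since centred values hold no signal over background.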

Other observations

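Called genes that lie next to each other on the chromosome were counted along the RefSeq gene order, as a description without a test. Over 2984 pairs of adjacent genes that were both measured, neighbours of a gene called higher were themselves called higher in 11.3% of cases, against 7.12% over all neighbours. For divergent pairs, which share an upstream region, the shares were 15.7% and 6.99%, from 9 pairs both higher. They were 11.9% and 7.44% for pairs on the same strand (12 pairs) and 5.5% and 6.73% for convergent pairs (3 pairs). Neighbours of a gene called lower were called lower in 5.94%, against 6.77% over all neighbours. For divergent pairs the shares were 12.1% and 6.0%, from 6 pairs both lower. They were 2.13% and 6.96% for pairs on the same strand (2 pairs) and 6.84% and 7.22% for convergent pairs (4 pairs). In all, 24 pairs were both higher and 12 both lower. Overlapping transcripts were not separated.

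The pairs, chosen after their values were seen, cross the lists described above. *isp5* (1.84) lies beside *mmf2* (1.48), which stood at 0.91, 1.18 and 1.36 with LatA, against 0.07, -0.24 and -0.82 with DMSO. SPBC1271.08c (2.06) lies beside SPBC1271.07c (1.45). *atg43* (1.30) is divergent from the transaminase gene *uga1* (1.07), *atg2402* (1.42) from *npl4* (0.65), and *ssd2* (1.11) from *fap2* (0.72). The arginase gene *car1* (1.31) lies beside *gor2* (1.08), and *tms1* (0.76) beside *adh8* (0.88). Among the decreases *erb1* (-0.71) is divergent from *nop4* (-1.09), *ytm1* (-0.80) from *pxr1* (-0.90) and *acl4* (-1.25) from *trm11* (-0.67), while *dut1* (-1.2) and *pct1* (-0.70) are convergent, as are *ade5* (-0.81) and *puf6* (-0.78).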
